A study of Mus musculus with 9 samples.

Results

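The respiratory chain passes electrons to oxygen and makes ATP, and its subunits come from both the nuclear and the mitochondrial genome. The genes described here were taken by name from the deposited expression table: symbols that start with Nduf, Uqcr, Atp5, Cox4i, Cox5, Cox6, Cox7 or Cox8, the symbols Sdha, Sdhb, Sdhc, Sdhd, Cycs and Cyc1, and the mitochondrially encoded mt-Nd, mt-Co, mt-Atp and mt-Cytb genes, with names marked as pseudogenes (-ps) left out. They came to 114 of 52306 named genes, of which 101 are nuclear and 13 are mitochondrially encoded. The rule uses gene names and no measured value, but it was written with earlier results of these data known. The Nduf prefix also takes in 8 Ndufaf genes, which code for assembly factors of complex I and not for subunits. Ndufa4 and Ndufa4l2 were counted with complex IV, the enzyme that the Ndufa4 protein belongs to.

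RNA-seq was made from 4T1 cells, an established mouse mammary carcinoma line, collected at day 2. There were 9 libraries in 3 groups of 3. The first group was treated with MK1775, also known as adavosertib, which blocks Wee1, a kinase that holds back entry into mitosis. The second carries the label of a knockdown of Wee1 by siRNA (short RNAs that direct the cleavage of a matching mRNA), and the third is the negative control (NC). The cells were grown in DMEM with fetal bovine serum, and the labels' protocols name inhibition of proliferation as what MK1775 and Wee1 siRNA were used for. The sources used here give neither the dose of MK1775, nor the siRNA sequences, nor what the negative control received. Nothing says that the 3 libraries of each group are separate cultures, and p-values then reflect only the spread between them, which may be technical. The labels number the siRNA libraries 1 to 3 without saying whether these were 3 replicates or 3 siRNAs.

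Wee1 mRNA had 14.95, 14.7 and 16.8 FPKM in the MK1775 libraries, 13.1, 15.1 and 15.3 in those labelled Wee1 siRNA, and 11.5, 10.5 and 11 in NC. Against NC this was a log2 difference of 0.46 (SE 0.078, adjusted p = 0.00226) with MK1775 and of 0.37 (SE 0.078, adjusted p = 0.00633) with the siRNA label. The targeted mRNA was therefore higher, not lower, in every library labelled Wee1 siRNA, and these are called the libraries labelled Wee1 siRNA, or siRNA-labelled libraries, throughout. Of the epithelial markers, Krt8, Krt18 and Cdh1 were expressed and higher than NC in both treated groups, and the 5 markers summed to 761 to 779 FPKM with MK1775, 703 to 712 FPKM with the siRNA label and 409 to 475 FPKM in NC. Epcam and Krt14 stayed below 1 FPKM in every library. Summed markers were 2.11 to 4.04 FPKM for immune cells (with Cd3e and Adgre1 listed at 0), 1.07 to 2.35 FPKM for fibroblasts and endothelium, and at most 1.08 FPKM for blood. The part of these marker levels in the results below was not tested. In a bulk culture, a change in the share of cells in one state and a change in RNA per cell cannot be told apart.

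Complex I (NADH dehydrogenase) and complex II (succinate dehydrogenase) feed electrons to coenzyme Q, complex III hands them on to cytochrome c, complex IV reduces oxygen, and complex V (ATP synthase) uses the proton gradient that results. Complexes I, III, IV and V each combine nuclear subunits with subunits made inside mitochondria, while complex II and cytochrome c are wholly nuclear. Nuclear respiratory factor 1 (NRF1), ETS-family factors such as GABPA, YY1 and factors that bind the cAMP response element (CRE) are known to bind promoters of such genes.

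Promoter windows are shown for 4 nuclear genes whose calls against NC held under all 22 alternatives that kept an adjusted p under 0.05 as the only threshold (called the 22 alternatives below): Ndufa8 and Cox7c, which were lower than NC in both treated groups, and Ndufa7 and Cycs, which were higher. Each runs 5′ to 3′ on the gene's own strand, with 250 bases before and 50 bases after the transcript start given by RefSeq (build GRCm38.p6, an older build than the one used for the expression table), and capitals mark a searched motif.
Ndufa8 promoter, chr2:36049289-36049588, minus strand: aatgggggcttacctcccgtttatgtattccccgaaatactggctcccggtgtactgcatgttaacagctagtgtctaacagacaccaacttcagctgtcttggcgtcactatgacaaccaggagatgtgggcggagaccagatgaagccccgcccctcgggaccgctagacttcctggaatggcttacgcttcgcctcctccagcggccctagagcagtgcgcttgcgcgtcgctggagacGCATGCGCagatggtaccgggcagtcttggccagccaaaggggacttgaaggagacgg
Cox7c promoter, chr13:86046746-86047045, minus strand: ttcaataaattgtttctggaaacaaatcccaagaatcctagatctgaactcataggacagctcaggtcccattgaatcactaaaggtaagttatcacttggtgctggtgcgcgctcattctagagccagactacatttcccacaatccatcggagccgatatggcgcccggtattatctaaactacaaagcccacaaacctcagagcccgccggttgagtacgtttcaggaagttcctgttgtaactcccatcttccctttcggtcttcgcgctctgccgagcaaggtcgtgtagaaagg
Ndufa7 promoter, chr17:33824322-33824621, plus strand: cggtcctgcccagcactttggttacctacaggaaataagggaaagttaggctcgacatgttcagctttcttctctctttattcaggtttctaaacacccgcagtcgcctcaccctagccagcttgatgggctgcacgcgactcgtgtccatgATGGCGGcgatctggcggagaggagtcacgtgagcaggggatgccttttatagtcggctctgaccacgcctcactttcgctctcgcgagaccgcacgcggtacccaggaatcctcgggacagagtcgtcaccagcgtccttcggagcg
Cycs promoter, chr6:50566520-50566819, minus strand: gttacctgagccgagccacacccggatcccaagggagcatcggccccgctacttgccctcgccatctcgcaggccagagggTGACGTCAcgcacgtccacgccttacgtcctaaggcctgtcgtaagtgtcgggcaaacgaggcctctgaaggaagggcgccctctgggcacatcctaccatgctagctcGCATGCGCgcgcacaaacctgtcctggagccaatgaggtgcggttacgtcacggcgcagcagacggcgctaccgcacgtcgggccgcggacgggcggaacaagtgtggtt

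The motifs searched, on both strands, were GCATGCGC for NRF1, CCGGAAG for ETS factors, ATGGCGG for YY1 and TGACGTCA for the CRE. Counted from the first base of the window, Ndufa8 has the NRF1 letters at position 243, Ndufa7 the YY1 letters at 153, and Cycs the CRE letters at 82 and the NRF1 letters at 191. Cox7c holds none of the 4 strings, which says only that these letters are not in its window. The window searched for Atp5c1, whose calls also held under all 22 alternatives, is not printed and holds none of them either. Ndufa7 and Atp5c1 have 2 windows each, of which only 1 was used for the statements above, while the shares below count both. A promoter window was matched for 78 nuclear members (83 windows). The NRF1 string is in 15.7% of those windows and in 2.71% of all 32851 windows in the table, the ETS string in 22.9% and 8.86%, the YY1 string in 15.7% and 4.05%, and the CRE string in 6.02% and 1.79%. A match of letters is a description and not a measured binding site.

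Of the 114 genes, 97 had a mean of at least 1 FPKM (fragments per kilobase of transcript length, normalized to all mapped fragments) over the 9 libraries and were tested, 87 nuclear and 10 mitochondrially encoded. The other 17 were below that level, and 3 of them (Cox7b2, Cox8b and Cox8c) were listed at 0 in every library. A gene was called different where limma's adjusted p, taken over all 10453 genes tested, was under 0.05, and fold changes are on the log2(FPKM + 1) scale, which understates the change of low genes.

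With MK1775, 8 respiratory chain genes were higher and 20 lower than NC, and 69 were not called. The share called was 28.9%, against 41% of all genes tested, with 17.9% of all genes higher and 23.1% lower. In the siRNA-labelled libraries 14 genes were higher and 24 lower than NC. There the share called was 39.2%, against 42.8% of all genes, with 19.6% higher and 23.2% lower. The share of members called was thus below that of all genes tested with MK1775 and close to it with the siRNA label. Counting only whether groups overlapped, 21 members lay wholly above NC and 28 wholly below it with MK1775, where 23.8% and 30.1% of all genes tested did (54% in all). With the siRNA label 18 lay above and 25 below, beside 24.1% and 28.1% of all genes (52.2% in all). No called member differed by 1 log2 unit or more in either comparison. Of all 10453 genes tested, 436 were called with such a difference with MK1775 and 490 with the siRNA label. The median difference over the 97 tested members was -0.02 with MK1775 and -0.0022 with the siRNA label, beside -0.04 and -0.01 over all genes tested. The balance of higher and lower calls with MK1775 depended on scaling: it was 13 higher and 20 lower with values rescaled to a common total, 17 higher and 13 lower with median-of-ratios size factors, and 20 higher and 14 lower with quantile normalization. Among all genes called, the share higher was 43.7% in the main fit and 45.2%, 51.3% and 47.7% with these scalings in turn. The number called lower was also 13 without NC replicate 3 or without MK1775 replicate 1 or 2, and 12 with no filter on low values. Over all genes, the 2411 called lower became 1966, 2004 and 2032 without those libraries, and 2168 with no filter. With no filter 28692 genes were tested, against 10453 in the main fit, so 2168 is a far smaller share.

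Both comparisons use the same 3 NC libraries, so calls in one are not independent of calls in the other. In both, 7 genes were called higher (Ndufa1, Ndufa7, Ndufb9, Uqcrq, mt-Co1, Atp5g1 and Cycs) and 18 lower. Of all genes tested, 41% were called with MK1775 and 42.8% with the siRNA label. The share of all genes called in both was not counted, so nothing is read from the 7 and the 18. The 18 were Ndufa6, Ndufa8, Ndufa9, Ndufab1, Ndufc2, Ndufv1, Ndufaf4, Ndufaf5, Ndufaf7, Ndufaf8, Sdha, Sdhd, Uqcr11, Uqcrfs1, Cox7c, Atp5c1, Atp5g2 and Atp5j. Not all of these calls were firm. That on Ndufc2 ended in 15 of the 22 alternatives with MK1775 and in 14 with the siRNA label. With the siRNA label, that on Uqcr11 ended in 13. MK1775 alone had Ndufv2 called higher, and Ndufs7 and mt-Nd3 called lower. The calls on Ndufv2 and Ndufs7 each ended in 13 of the 22 alternatives. The siRNA label alone had Ndufa2, Ndufs5, mt-Cytb, Cox6a1, Cox7b, mt-Co2 and Atp5md called higher, and Ndufa11, Ndufb11, Ndufb4, Ndufs3, Uqcrc2 and Atp5j2 called lower. Here the call on Ndufa2 ended in 8 alternatives, that on Ndufs3 in 10 and that on Atp5j2 in 14. A call in one comparison and not in the other does not show that the treated groups differed, and the direct test of that is given below.

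**Figure D1:**
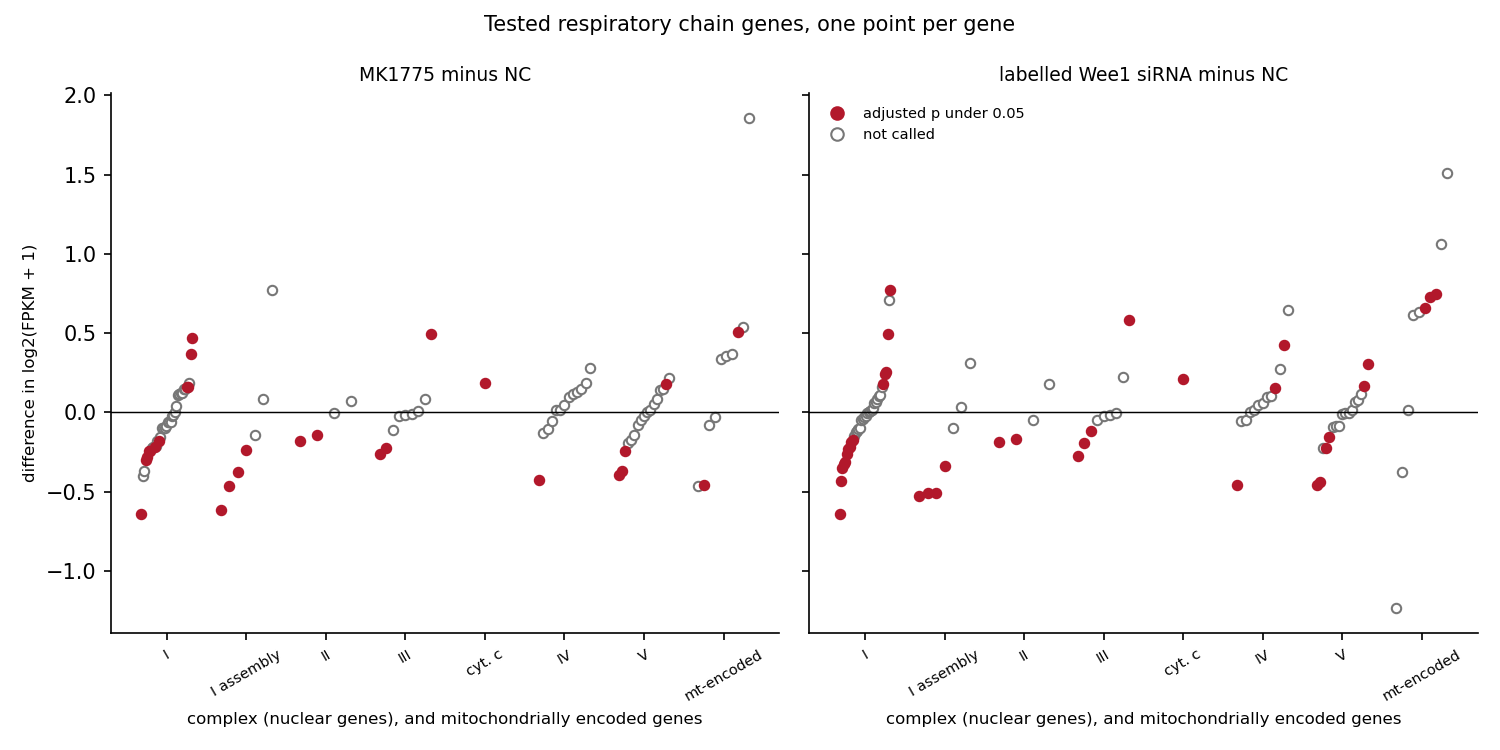
Difference from NC in log2(FPKM + 1) for the 97 tested respiratory chain genes, MK1775 on the left and the siRNA label on the right, with 1 point per gene grouped by complex (nuclear genes) and mitochondrially encoded genes last; filled points have an adjusted p under 0.05. Most nuclear genes lie within 0.5 of 0, and the assembly factors of complex I have 4 filled points in each panel, all below 0. Values are by gene name, and Ndufaf6, an open point above 0 among the assembly factors, was called higher in both panels once unnamed transcripts of its locus were added.

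Complex I has 41 nuclear members here, of which 36 were tested. With MK1775, 4 were higher and 7 lower, and with the siRNA label 5 were higher and 10 lower. That is 11.1% higher and 19.4% lower with MK1775, beside 17.9% and 23.1% of all genes tested, and 13.9% and 27.8% with the siRNA label, beside 19.6% and 23.2%. Ndufa8, an accessory subunit on the intermembrane-space side (gene at chr2:35926338-35939418, minus strand, build GRCm39), had the largest fall of any called member. It had 54.7, 54.3 and 54.9 FPKM in the MK1775 libraries, 54.1, 55.5 and 54.1 in those labelled Wee1 siRNA, and 83.9, 87.9 and 85.4 in NC. All 6 treated libraries lay between 54.1 and 55.5 FPKM, below every NC library. MK1775 libraries differed from NC by -0.64 (SE 0.035, adjusted p = 7.37e-06) on the log2 scale, and the siRNA-labelled libraries by -0.64 (SE 0.035, adjusted p = 7.17e-06).

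The calls on Ndufa6, an accessory subunit, and on Ndufab1, the mitochondrial acyl carrier protein, held in both groups under all 22 alternatives. Ndufa6 averaged 38.8 ± 0.583 FPKM in MK1775 libraries, 39.4 ± 2.49 in siRNA-labelled libraries and 47.3 ± 0.812 in NC libraries (SD, n = 3). Ndufab1 averaged 41.7 ± 1.54 FPKM in MK1775 libraries, 41.01 ± 2.19 in siRNA-labelled libraries and 51.6 ± 3.32 in NC libraries (SD, n = 3). For both genes, no treated library reached the lowest NC library. Ndufv1, the core subunit that binds NADH, had 32.7, 31.8 and 35.1 FPKM in the MK1775 libraries, 33.8, 34.4 and 31.6 in those labelled Wee1 siRNA, and 35.9, 38.3 and 38.9 in NC. Its groups did not overlap, but the fall was slight and the call ended in 12 of 22 alternatives in each comparison, among them without NC replicate 2 or 3. On the log2(FPKM + 1) scale the difference was -0.18 (SE 0.057, adjusted p = 0.0367) with MK1775 and -0.18 (SE 0.057, adjusted p = 0.03796) with the siRNA label.

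Higher than NC were Ndufa1, a small X-linked membrane subunit (GRCm39 chrX:36451241-36454816, minus strand), and the accessory subunit Ndufa7 (GRCm39 chr17:34043546-34057291, plus strand). Ndufa1 had 34.9, 40.3 and 36.4 FPKM in the MK1775 libraries, 40.1, 45.1 and 54.1 in those labelled Wee1 siRNA, and 26.3, 24.4 and 29 in NC. Every treated library was above every NC library, and the siRNA-labelled libraries spread most. With MK1775 the log2 difference from NC came to 0.47 (SE 0.11, adjusted p = 0.0114), and with the siRNA label to 0.77 (SE 0.11, adjusted p = 9.53e-04). Ndufa7 had 119, 128 and 123 FPKM in the MK1775 libraries, 135, 141 and 128 in those labelled Wee1 siRNA, and 85.8, 103 and 97.2 in NC. Again the treated and NC libraries did not overlap. Relative to NC, log2 differences of 0.37 (SE 0.07, adjusted p = 0.00385) for MK1775 and 0.50 (SE 0.07, adjusted p = 8.25e-04) for the siRNA label were obtained.

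Ndufb9, an accessory subunit that binds the acyl carrier protein, was the most abundant nuclear member of complex I, with a mean of 435 FPKM over the 9 libraries. It had 436, 448 and 465 FPKM in the MK1775 libraries, 439, 456 and 471 in those labelled Wee1 siRNA, and 389.6, 406 and 408 in NC. Every treated library was above every NC library, although the rise was small and its call with MK1775 ended without MK1775 replicate 3. The log2 difference was 0.16 (SE 0.041, adjusted p = 0.0143) for MK1775 and 0.18 (SE 0.041, adjusted p = 0.00863) for the siRNA label, each against NC. At the other end, Ndufb2 was the lowest tested subunit, with a mean of 4.64 FPKM, and the median over the 36 tested was 46.5 FPKM. Ndufa12 could not be separated from its pseudogene copy: reads of Ndufa12 and Ndufa12-ps can be split between both names, and the -ps entry held 29.0 to 36.3 FPKM, so the value of Ndufa12 (mean 58.3 FPKM, not called) is uncertain.

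The Ndufaf genes act while complex I is built. Of 7 tested, none was called higher and 4 were lower in both comparisons: Ndufaf4, Ndufaf5, Ndufaf7 and Ndufaf8. Among all genes tested 23.1% and 23.2% were lower. These counts are by gene name, and Ndufaf6 went the other way: it was called higher with MK1775 with array weights, without MK1775 replicate 3 or without siRNA-labelled replicate 3, and higher in both comparisons once unnamed transcripts of its locus were added, as given below. Ndufaf7, an assembly factor (GRCm39 chr17:79244565-79255481, plus strand), had 3.96, 3.97 and 4.203 FPKM in the MK1775 libraries, 4.53, 3.78 and 4.804 in those labelled Wee1 siRNA, and 5.83, 7.23 and 7.18 in NC. The treated libraries were all below the lowest NC library. Against NC this was a log2 difference of -0.61 (SE 0.1, adjusted p = 0.00191) with MK1775 and of -0.53 (SE 0.1, adjusted p = 0.003896) with the siRNA label. With the siRNA label this call ended when the most abundant transcript stood for the gene.

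Ndufaf5, which hydroxylates the core subunit Ndufs7, had 7.24, 7.68 and 6.903 FPKM in the MK1775 libraries, 5.98, 6.89 and 6.74 in those labelled Wee1 siRNA, and 9.13, 10.3 and 9.78 in NC. No treated library reached NC. MK1775 libraries differed from NC by -0.37 (SE 0.074, adjusted p = 0.00446) on the log2 scale, and the siRNA-labelled libraries by -0.51 (SE 0.074, adjusted p = 9.05e-04). Ndufaf8, the stabilising partner of Ndufaf5, differed by -0.24 and -0.34 on the log2 scale. Its call with MK1775 (adjusted p = 0.0325) ended in 7 of 22 alternatives, among them without NC replicate 2 or 3 or MK1775 replicate 1 or 2, and that with the siRNA label (adjusted p = 0.00676) in none. Ndufaf4 had 5.08, 4.75 and 4.65 FPKM in the MK1775 libraries, 4.11, 4.53 and 5.36 in those labelled Wee1 siRNA, and 8.35, 5.55 and 7.47 in NC. Treated and NC libraries did not overlap, but the second NC library was only just above the third siRNA-labelled library. On the log2(FPKM + 1) scale the difference was -0.46 (SE 0.14, adjusted p = 0.0283) with MK1775 and -0.51 (SE 0.14, adjusted p = 0.0184) with the siRNA label. This call ended in 7 of 22 alternatives with MK1775, among them without NC replicate 1 or 3 and without any 1 MK1775 replicate, and in 4 of 22 with the siRNA label, which left out NC replicate 1 or 3 or siRNA-labelled replicate 1 or 2.

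**Figure D2:**
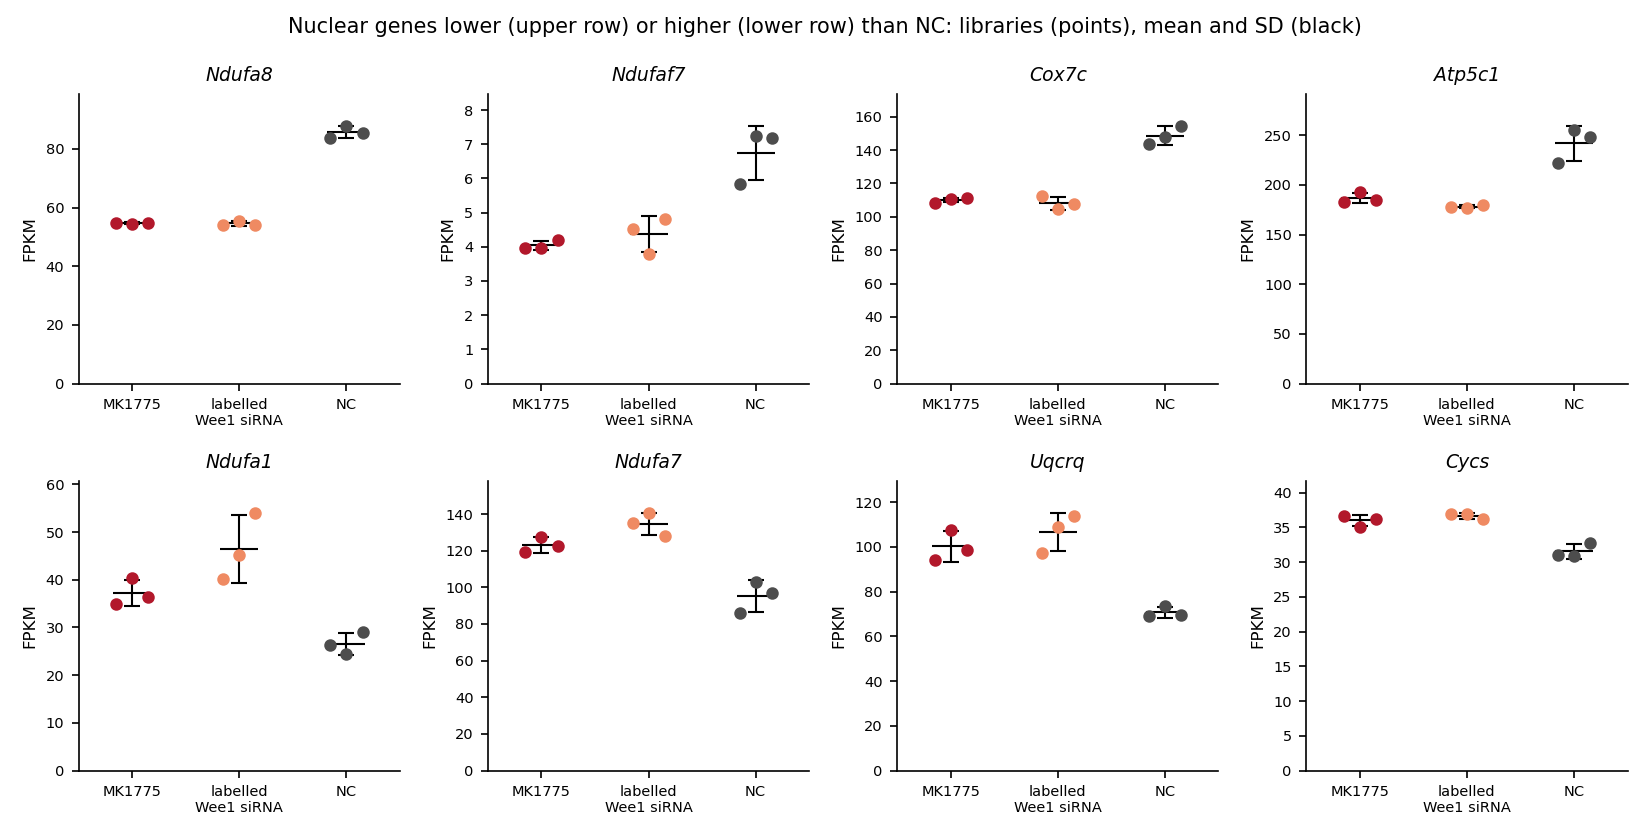
FPKM in each library (points) with the mean and SD of 3 libraries (black) for 4 nuclear genes lower than NC in both treated groups (upper row) and 4 higher than NC (lower row). In all 8 panels the 6 treated libraries lie on one side of the 3 NC libraries.

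Complex II has 4 subunits, all nuclear. Sdha, the flavoprotein that oxidises succinate, had 52.6, 52.3 and 54.6 FPKM in the MK1775 libraries, 52.6, 53.5 and 53.2 in those labelled Wee1 siRNA, and 59.1, 60.8 and 61.6 in NC. The treated libraries were all below NC. With MK1775 the log2 difference from NC came to -0.18 (SE 0.036, adjusted p = 0.00478), and with the siRNA label to -0.18 (SE 0.036, adjusted p = 0.00438). Sdhd, a membrane anchor and the most abundant of the 4, had 99.9, 94.5 and 99.4 FPKM in the MK1775 libraries, 97, 95.3 and 96.5 in those labelled Wee1 siRNA, and 102, 109.6 and 113 in NC. It also did not overlap NC, but the call ended in 15 of 22 alternatives with MK1775 and in 7 with the siRNA label, in both cases without NC replicate 2 or 3. Relative to NC, log2 differences of -0.14 (SE 0.047, adjusted p = 0.0425) for MK1775 and -0.17 (SE 0.047, adjusted p = 0.02199) for the siRNA label were obtained.

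Sdhb, the iron-sulfur subunit, had 92.6, 109 and 92.9 FPKM in the MK1775 libraries, 103, 105 and 108 in those labelled Wee1 siRNA, and 85.97, 94.3 and 99.5 in NC. Its treated and NC libraries overlapped with MK1775, and the gene was not called (adjusted p = 0.5 with MK1775 and 0.0957 with the siRNA label). Sdhc, the other anchor, had 32.4, 31.1 and 30 FPKM in the MK1775 libraries, 30.5, 30.2 and 29.8 in those labelled Wee1 siRNA, and 29.7, 32.7 and 31.4 in NC. It overlapped NC in both comparisons and was not called. Summed over the 4 genes, complex II held 277 to 287 FPKM with MK1775, 284 to 288 FPKM with the siRNA label and 276 to 306 FPKM in NC.

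Complex III had 9 tested nuclear members, with 1 higher and 2 lower than NC with MK1775, and 1 higher and 3 lower with the siRNA label. These shares of 11.1% and 22.2%, and of 11.1% and 33.3%, stand beside 17.9% and 23.1%, and 19.6% and 23.2%, of all genes tested. Uqcrq, a small subunit (GRCm39 chr11:53318749-53321658, minus strand), had 94.2, 108 and 98.8 FPKM in the MK1775 libraries, 97.1, 109 and 114 in those labelled Wee1 siRNA, and 69.2, 73.4 and 69.4 in NC. The treated libraries were well above every NC library. The log2 difference was 0.50 (SE 0.071, adjusted p = 9.08e-04) for MK1775 and 0.58 (SE 0.071, adjusted p = 3.80e-04) for the siRNA label, each against NC. The Rieske iron-sulfur protein, Uqcrfs1, moved the other way and had 57.5, 56.4 and 58.8 FPKM in the MK1775 libraries, 55.3, 55.2 and 56.4 in those labelled Wee1 siRNA, and 62.6, 70.8 and 68.9 in NC. No treated library reached NC. Against NC this was a log2 difference of -0.22 (SE 0.051, adjusted p = 0.00865) with MK1775 and of -0.27 (SE 0.051, adjusted p = 0.00316) with the siRNA label. The most abundant member, the core protein Uqcrc1, had 159, 159.8 and 163 FPKM in the MK1775 libraries, 161, 158 and 149.8 in those labelled Wee1 siRNA, and 145, 179.6 and 162 in NC. Its groups overlapped and it was not called.

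Cytochrome c carries electrons between complexes III and IV, and also activates caspases when it leaves mitochondria. Its somatic gene, Cycs (GRCm39 chr6:50539543-50543518, minus strand), had 36.7, 35.1 and 36.3 FPKM in the MK1775 libraries, 36.97, 36.9 and 36.2 in those labelled Wee1 siRNA, and 30.9, 30.8 and 32.8 in NC. All treated libraries were above all NC libraries, by a small margin. MK1775 libraries differed from NC by 0.19 (SE 0.041, adjusted p = 0.00771) on the log2 scale, and the siRNA-labelled libraries by 0.21 (SE 0.041, adjusted p = 0.00395). Both calls held under all 22 alternatives. Cyc1, which codes for cytochrome c1 of complex III, had a mean of 65.5 FPKM and was not called.

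Complex IV had 13 tested nuclear members. None was called higher and 1 lower with MK1775, and 2 were higher and 1 lower with the siRNA label. The shares lower, 7.69% in both comparisons, were below the 23.1% and 23.2% of all genes tested, and the 15.4% higher with the siRNA label was below 19.6%. The gene lower in both was Cox7c, a small subunit without heme (GRCm39 chr13:86192935-86195023, minus strand), with 109, 111 and 111 FPKM in the MK1775 libraries, 112, 105 and 108 in those labelled Wee1 siRNA, and 144, 148 and 155 in NC. The treated libraries stood far below NC, and close to each other. On the log2(FPKM + 1) scale the difference was -0.43 (SE 0.042, adjusted p = 1.35e-04) with MK1775 and -0.46 (SE 0.042, adjusted p = 9.86e-05) with the siRNA label. Cox7b, another small subunit, and Cox6a1 were called higher with the siRNA label and not with MK1775, and the call on Cox6a1 ended in 10 of the 22 alternatives, among them without NC replicate 1 or 3. Cox7b had 85.2, 84.02 and 76.8 FPKM in the MK1775 libraries, 78.7, 92.1 and 103 in those labelled Wee1 siRNA, and 73.97, 58.3 and 70.4 in NC. Its treated libraries lay above NC, and the call with the siRNA label ended without NC replicate 2 or without siRNA-labelled replicate 2 or 3. With MK1775 the log2 difference from NC came to 0.28 (SE 0.12, adjusted p = 0.0871), and with the siRNA label to 0.43 (SE 0.12, adjusted p = 0.0182).

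Several complex IV subunits exist as paired genes, of which one form is widespread and the other is typical of muscle, lung, testis or low oxygen. In 4T1 cells the widespread forms carried the signal. Cox4i1, the most abundant nuclear member of complex IV, had 321, 325 and 332 FPKM in the MK1775 libraries, 317, 324 and 316 in those labelled Wee1 siRNA, and 279, 316 and 299 in NC. Cox4i2 was listed at 0 in 6 libraries and at no more than 0.268 FPKM in the others. Cox6a1 had 194, 197 and 209.6 FPKM in the MK1775 libraries, 205, 207 and 193 in those labelled Wee1 siRNA, and 176, 192 and 174 in NC, whereas Cox6a2 had 0.505, 0.698 and 0.457 FPKM in the MK1775 libraries, 0.256, 0.779 and 1.298 in those labelled Wee1 siRNA, and 0.123, 0 and 0 in NC. Cox6a2 was thus low everywhere but listed higher in all 6 treated libraries than in any NC library, below the level at which genes were tested.

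Cox6b1 had 139, 141 and 130.4 FPKM in the MK1775 libraries, 136, 146 and 154 in those labelled Wee1 siRNA, and 128, 140.2 and 138 in NC. Cox6b2 was listed at 0 outside the siRNA-labelled libraries and at 0.144, 0.184 and 0.332 FPKM within them. Cox7a2 had 84.6, 77.7 and 84.4 FPKM in the MK1775 libraries, 82.9, 83.7 and 90.6 in those labelled Wee1 siRNA, and 84.9, 86.5 and 93.97 in NC. Cox7a2l, a related gene that takes part in supercomplex assembly, had 86.3, 86.4 and 86.8 FPKM in the MK1775 libraries, 85.6, 82.8 and 81.3 in those labelled Wee1 siRNA, and 74.9, 84.2 and 80.2 in NC. Neither Cox7a2 nor Cox7a2l was called, while the muscle form Cox7a1 had 0.51, 0.7698 and 0.321 FPKM in the MK1775 libraries, 0.435, 0.291 and 0.313 in those labelled Wee1 siRNA, and 0.463, 0.195 and 1.25 in NC. Cox8a had 215, 217 and 216 FPKM in the MK1775 libraries, 224, 215 and 225 in those labelled Wee1 siRNA, and 209, 212 and 220.2 in NC, and Cox8b and Cox8c were listed at 0 throughout. Ndufa4 had 157, 151 and 162 FPKM in the MK1775 libraries, 169, 163 and 163 in those labelled Wee1 siRNA, and 166, 153 and 170.1 in NC, and Ndufa4l2, its hypoxia-linked relative, had 0.116, 0.162 and 0.0598 FPKM in the MK1775 libraries, 0.285, 0.149 and 0 in those labelled Wee1 siRNA, and 0, 0 and 0 in NC. Within each of these sets, no library had more of the restricted form than of the widespread one.

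In complex V, 17 nuclear members were tested, with 1 higher and 3 lower with MK1775, and 2 higher and 4 lower with the siRNA label. This was 5.88% higher and 17.6% lower with MK1775, beside 17.9% and 23.1% of all genes tested, and 11.8% and 23.5% with the siRNA label, beside 19.6% and 23.2%. The most abundant nuclear member of the whole chain was the catalytic subunit Atp5b, with 553, 543 and 561 FPKM in the MK1775 libraries, 547, 534 and 534 in those labelled Wee1 siRNA, and 536, 603 and 578 in NC. It was not called. Atp5c1, the central shaft that turns inside the catalytic head (GRCm39 chr2:10060827-10085321, minus strand), had 183, 192 and 185 FPKM in the MK1775 libraries, 178, 177 and 179.9 in those labelled Wee1 siRNA, and 222, 256 and 248 in NC. The treated libraries were all below NC. Relative to NC, log2 differences of -0.37 (SE 0.054, adjusted p = 0.00102) for MK1775 and -0.44 (SE 0.054, adjusted p = 4.20e-04) for the siRNA label were obtained. Atp5j, coupling factor 6 of the stalk, fell by 0.24 on the log2 scale with MK1775 and by 0.22 with the siRNA label, and both calls ended without NC replicate 3. With the siRNA label it also ended without NC replicate 2, without siRNA-labelled replicate 1 or 2, and with only the 2 groups in the model. Atp5md, a small subunit of the dimer interface, was called higher with the siRNA label only, at 0.30 (adjusted p = 0.0129), with 0.22 for MK1775 (adjusted p = 0.05303).

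The proton-carrying ring of complex V is made of 1 mature protein that Atp5g1, Atp5g2 and Atp5g3 all code for. Atp5g1 had 131, 139 and 138 FPKM in the MK1775 libraries, 137, 137 and 131 in those labelled Wee1 siRNA, and 114, 129 and 117 in NC. It was called higher by a small margin, and the call ended in 8 of 22 alternatives with MK1775 and in 10 of 22 with the siRNA label, in both cases without NC replicate 1 or 3. The log2 difference was 0.18 (SE 0.054, adjusted p = 0.02799) for MK1775 and 0.17 (SE 0.054, adjusted p = 0.0379) for the siRNA label, each against NC. Atp5g2 had 163, 171 and 182 FPKM in the MK1775 libraries, 173, 168 and 154 in those labelled Wee1 siRNA, and 221, 273 and 193 in NC. NC spread widely and all treated libraries were below it. Against NC this was a log2 difference of -0.40 (SE 0.12, adjusted p = 0.0267) with MK1775 and of -0.45 (SE 0.12, adjusted p = 0.0143) with the siRNA label. The direction of Atp5g2 turned when only its most abundant transcript was counted, to 1.89 and 1.84 (adjusted p = 0.447 in both). That transcript had 137 and 165 FPKM in the first and second NC libraries but 0.137 FPKM in the third, where another transcript of the gene had 191 FPKM. With MK1775 the call on the whole gene also ended without NC replicate 1 or MK1775 replicate 1 or 2. Atp5g3 had 310.4, 328 and 328 FPKM in the MK1775 libraries, 313, 324 and 306 in those labelled Wee1 siRNA, and 384, 410.5 and 316 in NC. NC replicate 3 overlapped the treated ones and Atp5g3 was not called. That library also held 68 FPKM of an unnamed transcript at the Atp5g3 locus. With unnamed transcripts added Atp5g3 was called lower, at -0.26 with MK1775 (adjusted p = 5.41e-04) and -0.32 with the siRNA label (adjusted p = 1.68e-04). Without NC replicate 3 the gene was also called lower by name, at -0.30 (adjusted p = 0.00423) and -0.33 (adjusted p = 0.00263).

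**Figure D3:**
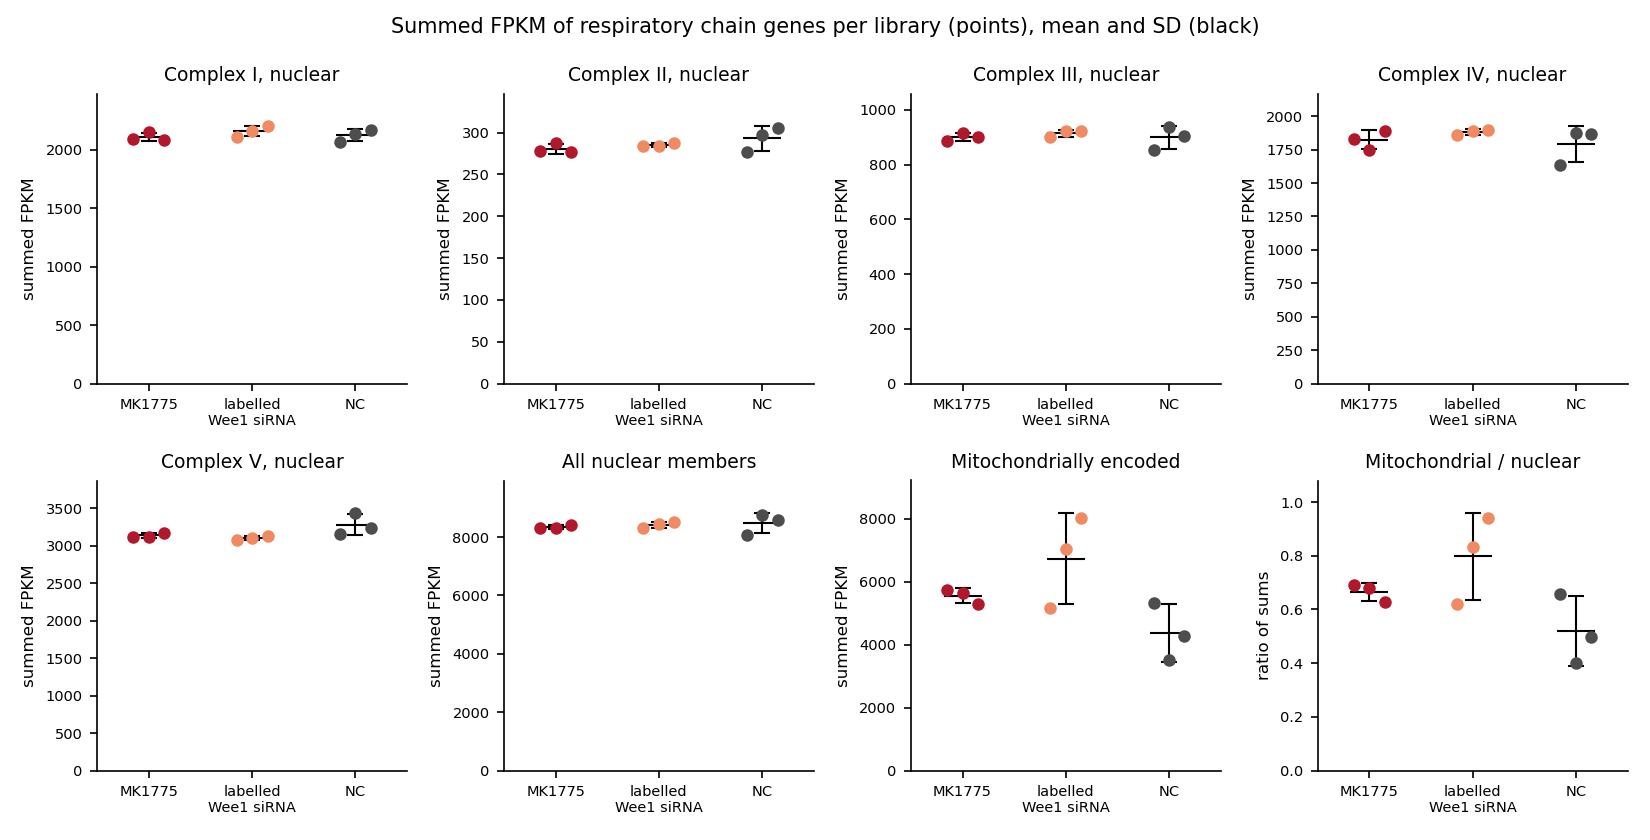
Summed FPKM of the nuclear members of complexes I to V, of all nuclear members and of the mitochondrially encoded members, and the ratio of the mitochondrial to the nuclear sum, in each library (points) with mean and SD (black). The nuclear sums lie close together in all groups, while the mitochondrial sums spread from 3520 to 8016 FPKM.

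The nuclear members summed to 8306 to 8409 FPKM with MK1775, 8318 to 8529 FPKM with the siRNA label and 8084 to 8771 FPKM in NC, which was 2.51% to 2.63% of all FPKM in every library. The ratio of group means was 0.984 for MK1775 and 0.994 for the siRNA label, the treated values lay inside the NC range, and both ratios were above 1 with quantile normalization. By complex, the nuclear complex V sum was lower than NC in all 3 siRNA-labelled libraries (3080 to 3127 FPKM, against 3165 to 3443 FPKM in NC). The sum of the 8 assembly factors was 46.9 to 55.5 FPKM with the siRNA label, against 57.0 to 60.6 FPKM in NC, but with the unnamed transcripts of their loci added it was 87.7 to 93.3 FPKM with the siRNA label, against 82.9 to 88.9 FPKM in NC, and the groups overlapped. That addition was chosen after seeing the data and brought in the Ndufaf6 and Ndufaf2 transcripts described below. The nuclear sums of complexes I, II, III and IV overlapped NC in both comparisons. Mitochondrially encoded members of complex IV summed to 2460 to 2674 FPKM with MK1775, 2493 to 3175 FPKM with the siRNA label and 1635 to 1968 FPKM in NC. The mitochondrial sums of complexes I and III overlapped NC, and that of complex V lay above NC with MK1775 only. Sums over members were given no test.

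The 13 mitochondrially encoded genes are transcribed as long polycistronic RNAs that are then cut and polyadenylated. Their summed level was 5731, 5644 and 5288 FPKM in the MK1775 libraries, 5154, 7030.4 and 8016 in those labelled Wee1 siRNA, and 5326, 3519.7 and 4258 in NC. The groups overlapped in both comparisons, and that overlap rested on the first NC library, which had 713 FPKM of mt-Nd2. Without mt-Nd2, a choice made after seeing the data, the sum was 5563, 5524 and 5146 FPKM in the MK1775 libraries, 5089, 6950.1 and 7909 in those labelled Wee1 siRNA, and 4614, 3404 and 4167 in NC, and every treated library was above every NC library. Nuclear and mitochondrial members together summed to 14037, 13959.7 and 13697 FPKM in the MK1775 libraries, 13473, 15470.5 and 16545 in those labelled Wee1 siRNA, and 13411, 12291 and 12844 in NC, again with all treated libraries above NC, and with no test. Of the mitochondrial sum, mt-Co1 and mt-Cytb made up 75.5% to 87.7%. Beside the nuclear sum, the mitochondrial one stood at a ratio of 0.6899, 0.679 and 0.629 with MK1775, 0.6196, 0.833 and 0.9399 with the siRNA label and 0.659, 0.401 and 0.496 in NC. The lowest treated ratio, in the first siRNA-labelled library, was below the highest NC ratio. Libraries of 1 group differed more here than among nuclear genes: the median coefficient of variation of tested mitochondrial genes was 11.1% with MK1775, 29.5% with the siRNA label and 25.3% in NC, against 4.40%, 4.40% and 5.87% for nuclear members.

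mt-Co1, the catalytic core of complex IV, had 2539, 2622 and 2416 FPKM in the MK1775 libraries, 2434, 2936 and 3111 in those labelled Wee1 siRNA, and 1923, 1607 and 1819 in NC. Every treated library was above every NC library. MK1775 libraries differed from NC by 0.51 (SE 0.1, adjusted p = 0.00447) on the log2 scale, and the siRNA-labelled libraries by 0.66 (SE 0.1, adjusted p = 0.00113). It was the only mitochondrially encoded gene called higher in both comparisons, and both calls held under all 22 alternatives. Transcripts of mt-Co2, which takes up electrons from cytochrome c, had 46.3, 52.3 and 44.1 FPKM in the MK1775 libraries, 59.1, 65.4 and 64 in those labelled Wee1 siRNA, and 45.8, 27.3 and 40.2 in NC. Only the siRNA-labelled libraries stood clear of NC. On the log2(FPKM + 1) scale the difference was 0.35 (SE 0.17, adjusted p = 0.132) with MK1775 and 0.75 (SE 0.17, adjusted p = 0.00801) with the siRNA label.

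mt-Cytb, the central subunit of complex III, had 2319, 2214 and 2094 FPKM in the MK1775 libraries, 2085, 3115 and 3726 in those labelled Wee1 siRNA, and 2096, 1375 and 1843 in NC. It was called with the siRNA label although its first library was below the first NC library, and the call ended in 8 of 22 alternatives, among them leaving out NC replicate 2 or 3 or siRNA-labelled replicate 2 or 3. With MK1775 the log2 difference from NC came to 0.34 (SE 0.22, adjusted p = 0.263), and with the siRNA label to 0.73 (SE 0.22, adjusted p = 0.0284). mt-Nd3, a small complex I subunit, had 11.8, 12.4 and 9.98 FPKM in the MK1775 libraries, 11.7, 10.4 and 14.5 in those labelled Wee1 siRNA, and 14.2, 17.8 and 16.03 in NC. It was lower in all MK1775 libraries than in any NC library, and overlapped NC with the siRNA label. Relative to NC, log2 differences of -0.46 (SE 0.13, adjusted p = 0.0267) for MK1775 and -0.37 (SE 0.13, adjusted p = 0.0551) for the siRNA label were obtained. The call on mt-Nd3 ended in 6 of 22 alternatives, including those without NC replicate 2 or 3 or MK1775 replicate 1 or 3.

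The other complex I genes of mitochondrial DNA were not called. mt-Nd5 had 281, 268 and 254 FPKM in the MK1775 libraries, 223, 336 and 428 in those labelled Wee1 siRNA, and 269.6, 163 and 201 in NC. mt-Nd2 had 167, 120.0 and 142 FPKM in the MK1775 libraries, 65.3, 80.4 and 108 in those labelled Wee1 siRNA, and 713, 116 and 90.8 in NC. The first NC library thus held several times more mt-Nd2 than any other. mt-Nd1 had 3.08, 2.096 and 6.73 FPKM in the MK1775 libraries, 2.56, 3.44 and 5.75 in those labelled Wee1 siRNA, and 3.503, 4.02 and 3.58 in NC. mt-Nd6, on the opposite strand, had 0.228, 0.0129 and 0.165 FPKM in the MK1775 libraries, 0.0103, 0.691 and 0.0474 in those labelled Wee1 siRNA, and 0.696, 0.0129 and 0.149 in NC. It stayed below 1 FPKM in every library and was not tested.

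The table's mt-Nd4l entry runs over bases 9877 to 11544 of the mitochondrial genome and so contains mt-Nd4 at 10167 to 11544, as both genes share an mRNA. mt-Nd4 had 3.37, 62.3 and 3.84 FPKM in the MK1775 libraries, 3.59, 161 and 48.2 in those labelled Wee1 siRNA, and 4.75, 45.3 and 4.96 in NC, and mt-Nd4l had 327, 262 and 293 FPKM in the MK1775 libraries, 269, 256 and 441 in those labelled Wee1 siRNA, and 255, 141 and 226 in NC. The split between these overlapping entries differed from library to library. Summed, the 2 entries gave 330.3, 324 and 297 FPKM in the MK1775 libraries, 273, 417 and 489 in those labelled Wee1 siRNA, and 259.9, 186 and 231 in NC. On that sum every treated library was above every NC library, a measurement with no test.

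mt-Co3, a core subunit of complex IV, had 0.101, 0.07302 and 0.0285 FPKM in the MK1775 libraries, 1.99e-04, 3.70e-05 and 0.0841 in those labelled Wee1 siRNA, and 0.01004, 0.0995 and 0.0803 in NC. For mt-Atp6, a proton channel subunit of complex V, the values were 0.0363, 0.00808 and 0.315 FPKM in the MK1775 libraries, 0.00612, 0.0239 and 0.204 in those labelled Wee1 siRNA, and 0.00877, 0.0169 and 0.0426 in NC. Both were too low to be tested. mt-Atp8, also of complex V, had 32.4, 29.1 and 24.1 FPKM in the MK1775 libraries, 0.028, 66.02 and 69.6 in those labelled Wee1 siRNA, and 0.683, 23.04 and 12.1 in NC, which differed widely between libraries of 1 group. These levels stand beside an unnamed transcript of 3664 bases that runs from base 2751, the start of mt-Nd1, to base 9390, the end of mt-Co3, and beside 4 shorter unnamed ones that start at 7011 or later and end at 9390 or 9807, the last base of mt-Nd3. Together, the unnamed transcripts on mitochondrial DNA held 904, 936 and 867 FPKM in the MK1775 libraries, 834, 1139 and 1179.5 in those labelled Wee1 siRNA, and 989.9, 769 and 939 in NC. These groups overlapped too. The named values of genes between bases 2751 and 9807, mt-Co2 and mt-Nd3 included, may therefore not be their full levels, while mt-Co1 lies within that span under a locus of its own. With the unnamed transcripts added, the mitochondrial sum was 1.23 times NC with MK1775 and 1.48 times NC with the siRNA label, against 1.27 and 1.54 without them.

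The mitochondrial 12S ribosomal RNA, mt-Rnr1, is transcribed from the same strand and is not one of the 114 genes. It had 93.7, 104 and 94.7 FPKM in the MK1775 libraries, 97.5, 102 and 105 in those labelled Wee1 siRNA, and 254, 191 and 183 in NC. It was lower in every treated library than in NC, while mt-Co1 was higher. The log2 difference was -1.08 (SE 0.11, adjusted p = 1.99e-04) for MK1775 and -1.02 (SE 0.11, adjusted p = 2.56e-04) for the siRNA label, each against NC. The 16S ribosomal RNA, mt-Rnr2, had 211, 201 and 205 FPKM in the MK1775 libraries, 158, 213 and 266 in those labelled Wee1 siRNA, and 366, 199.9 and 240.2 in NC, overlapped NC and was not called. No source used here says whether poly(A) RNA was selected.

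**Figure D4:**
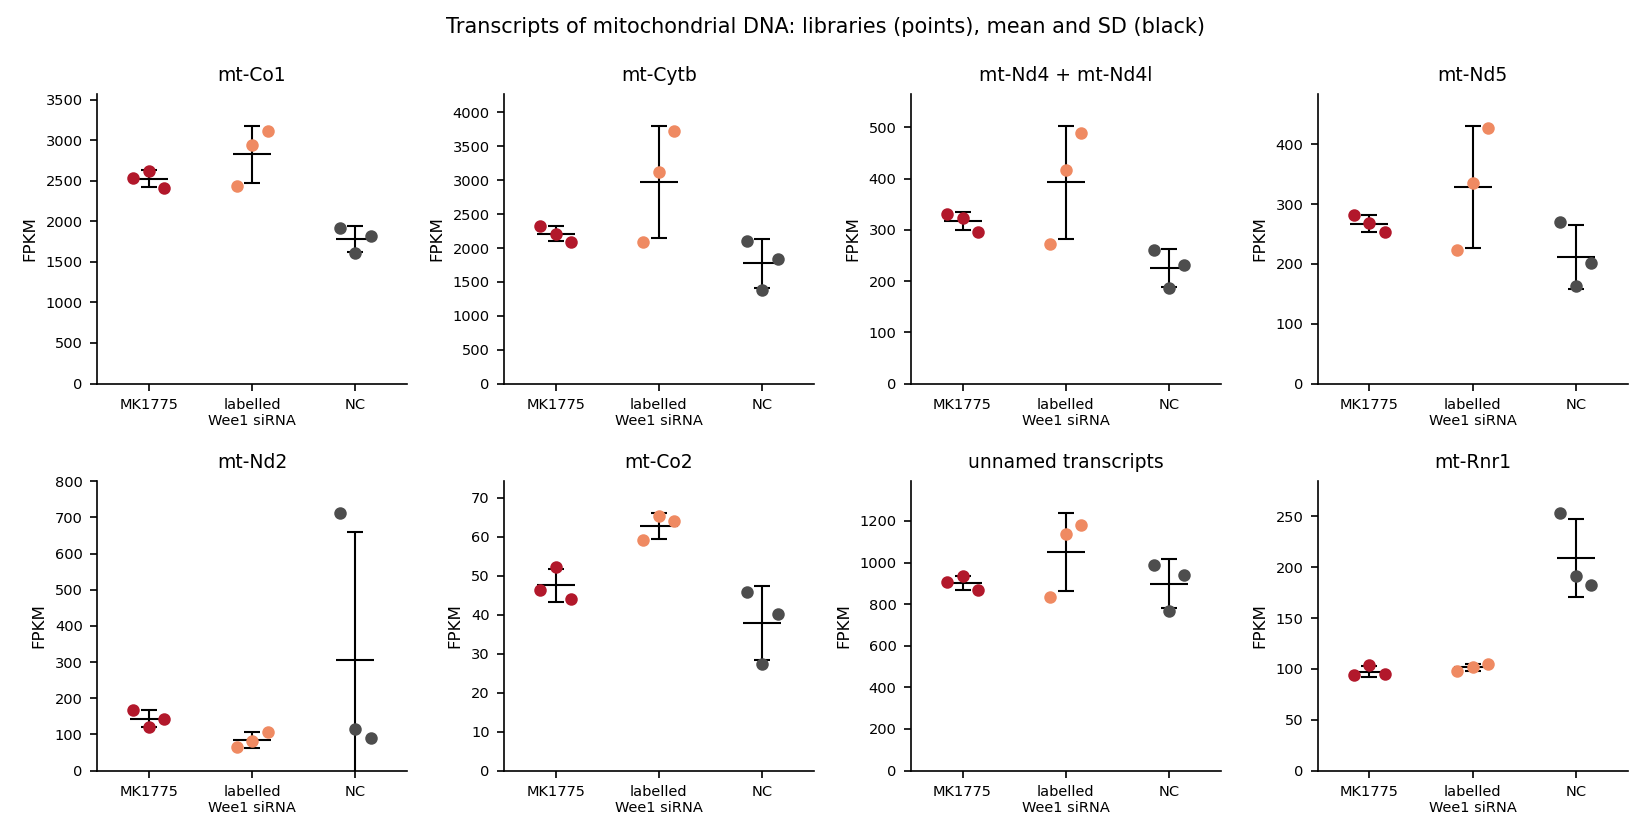
FPKM in each library (points) with mean and SD of 3 libraries (black; an SD bar below 0 is cut at 0) for mitochondrially encoded genes, the sum of mt-Nd4 and mt-Nd4l, the unnamed transcripts on mitochondrial DNA, and the 12S ribosomal RNA mt-Rnr1. mt-Co1 is higher and mt-Rnr1 lower in all 6 treated libraries than in the 3 NC libraries, and 1 NC library stands at 713 FPKM of mt-Nd2.

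Unnamed assembled transcripts were also present at the loci of nuclear members. Of the 114 genes, 31 shared their locus with at least 1 of them. The unnamed transcripts had a mean of at least 1 FPKM at 17 loci of nuclear members. At these they lay wholly above NC at 6 (35.3%) with MK1775 and at 4 (23.5%) with the siRNA label. The shares among the 4522 nuclear genes with unnamed transcripts at that level were 23.4% and 23%. The Uqcrc2, Ndufa7 and Atp5h loci averaged 0.0305, 0.690 and 0.677 FPKM in NC and so reached 1 FPKM only through treated libraries. Nothing is read from these counts. Cox6c, a complex IV subunit, had 164, 87.9 and 198 FPKM in the MK1775 libraries, 217, 209.8 and 196 in those labelled Wee1 siRNA, and 49.1, 226 and 208 in NC. With the unnamed transcripts of its locus added it had 237, 218 and 229 FPKM in the MK1775 libraries, 234, 247 and 244 in those labelled Wee1 siRNA, and 216, 239 and 243 in NC. The low named values of the first NC and the second MK1775 library were gone in this sum, and the gene was not called either way. Ndufb8, a complex I subunit, had 82.8, 79.5 and 6.35 FPKM in the MK1775 libraries, 76.5, 73.1 and 79.8 in those labelled Wee1 siRNA, and 95.6, 10.1 and 98.2 in NC. With the unnamed transcript it had 82.8, 79.5 and 81.6 FPKM in the MK1775 libraries, 76.5, 73.1 and 79.8 in those labelled Wee1 siRNA, and 95.6, 99.95 and 98.2 in NC.

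On that sum Ndufb8 was lower than NC in both groups, at -0.27 with MK1775 (adjusted p = 0.00165) and -0.35 with the siRNA label (adjusted p = 0.000374), in an alternative chosen after seeing the data. The locus of Ndufb8 holds 3 named genes, so locus alone does not assign the unnamed transcript. On the minus strand, it shares the boundary at base 44543879 with the named Ndufb8 transcripts. It had 89.8 FPKM in the second NC and 75.3 in the third MK1775 library, and 0 elsewhere. In those libraries the most abundant Ndufb8 transcript had 0.731 and 0.717 FPKM. Which gene it belongs to was not tested. Like Ndufb8, Ndufs1, the largest core subunit of complex I, was called lower only with its unnamed transcripts. It then had 34.8, 33.9 and 34.3 FPKM in the MK1775 libraries, 32.8, 34.2 and 36.7 in those labelled Wee1 siRNA, and 42.1, 37.7 and 42.03 in NC. Against NC this was a log2 difference of -0.23 (SE 0.057, adjusted p = 0.00768) with MK1775 and of -0.23 (SE 0.057, adjusted p = 0.00858) with the siRNA label. By name alone Ndufs1 had 10.1, 18.9 and 17.1 FPKM in the MK1775 libraries, 11.9, 17.2 and 23.99 in those labelled Wee1 siRNA, and 22.8, 14.7 and 16.2 in NC, which overlapped.

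The assembly factor Ndufaf6 had 17.7, 12.3 and 8.32 FPKM in the MK1775 libraries, 8.38, 5.87 and 12.7 in those labelled Wee1 siRNA, and 6.19, 7.46 and 6.59 in NC by name and was not called. With the unnamed transcripts of its locus it had 24.3, 23.96 and 22.01 FPKM in the MK1775 libraries, 23.5, 21.05 and 24.8 in those labelled Wee1 siRNA, and 9.11, 11.1 and 10.8 in NC. Every treated library was then above every NC library. MK1775 libraries differed from NC by 1.11 (SE 0.084, adjusted p = 9.29e-06) on the log2 scale, and the siRNA-labelled libraries by 1.09 (SE 0.084, adjusted p = 9.63e-06). Ndufaf2 was listed at 0.170 to 0.621 FPKM, while an unnamed transcript at its locus held 23.0 to 27.6 FPKM. Ndufa13 was listed at 0 in 8 libraries beside 19.1 to 30.3 FPKM of an unnamed transcript. The calls on Ndufb11, Ndufs5 and Uqcrc2 with the siRNA label ended when unnamed transcripts were added. For Ndufs5 this was the only one of the 22 alternatives that ended it, while 11 ended the call on Ndufb11 and 16 that on Uqcrc2. When unnamed transcripts were added, other genes gained calls. Sdhb in both comparisons and Cox5a with MK1775 were then called higher, and Atp5g3 was called lower in both.

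**Figure D5:**
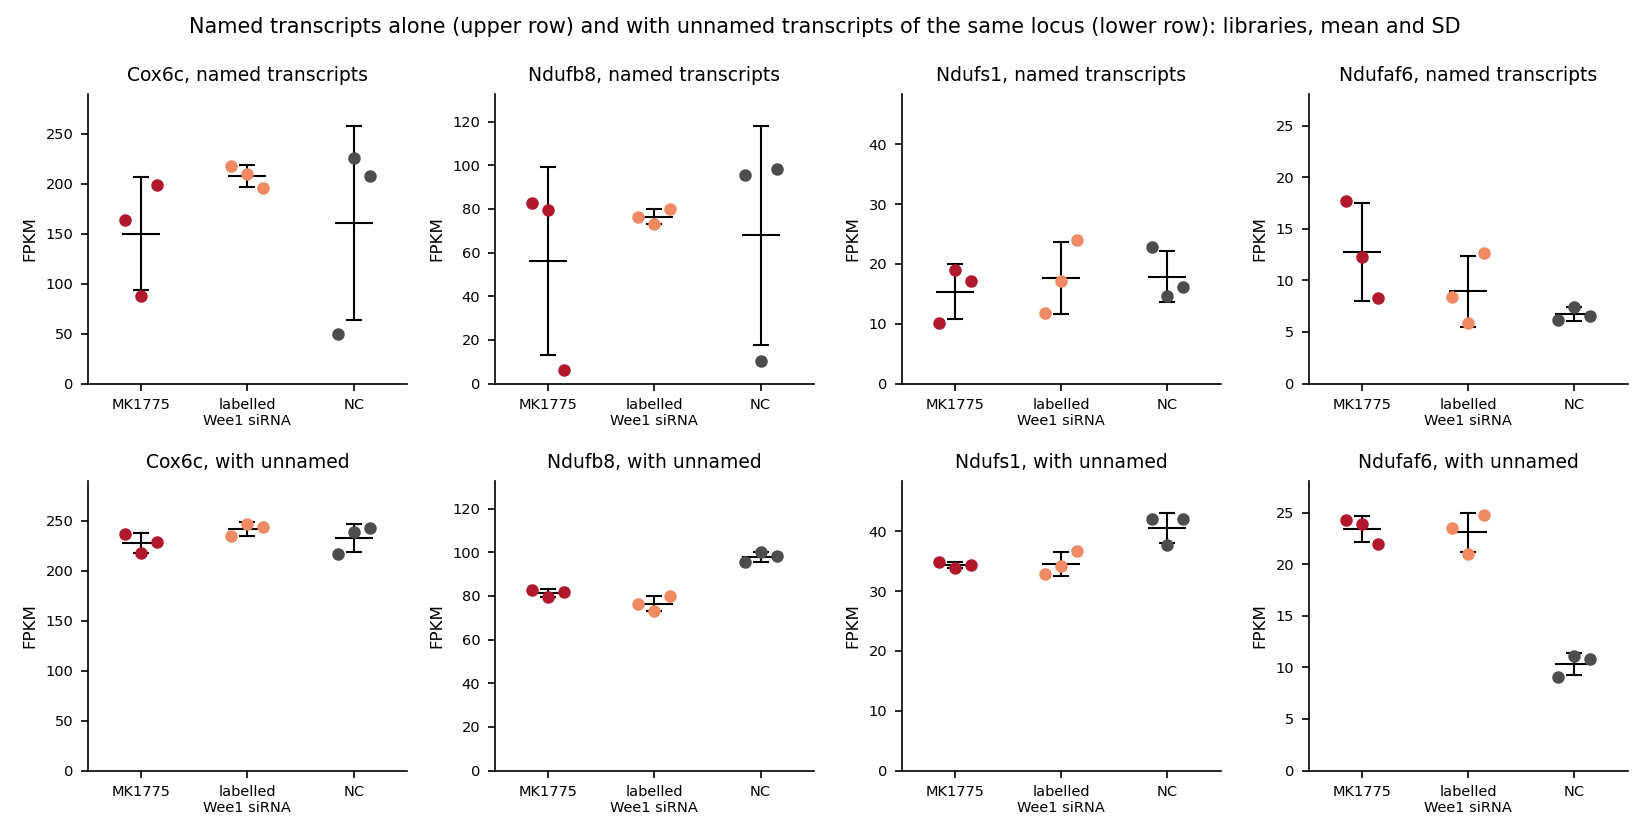
FPKM in each library (points) with mean and SD (black) for Cox6c, Ndufb8, Ndufs1 and Ndufaf6, counting only transcripts that carry the gene's name (upper row) or adding the unnamed transcripts of its locus (lower row). The outlying libraries of the upper row move in with the others in the lower row, where Ndufb8 and Ndufs1 lie below NC and Ndufaf6 above NC in all 6 treated libraries.

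Set directly against each other, MK1775 and siRNA-labelled libraries had no respiratory chain gene called by limma, in either direction, with 2 at an unadjusted p under 0.05 and none called under any alternative tried. Over all genes tested, 1 was called (0.00957%). Groups did not overlap for 6 members higher and 6 lower with MK1775 than with the siRNA label, beside 5.08% and 6.78% of all genes (11.9% in all). The 2 members were Ndufa1, at -0.30 (95% interval -0.57 to -0.04, adjusted p = 0.791), and mt-Co2, at -0.40 (95% interval -0.78 to -0.01, adjusted p = 0.841). Both were lower with MK1775 than with the siRNA label. Intervals were narrow for steady genes and wide for mitochondrial ones: that of Ndufa8 ran from -0.08 to 0.08, that of Cycs from -0.12 to 0.07 and that of mt-Cytb from -0.90 to 0.12. A p above the threshold does not show that the 2 groups were alike.

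Other genes of the pathway were counted from 6 lists. The shares of all genes tested that each count stands beside were 17.9% higher and 23.1% lower with MK1775, and 19.6% higher and 23.2% lower with the siRNA label. Among genes for import into mitochondria, cristae and inner-membrane carriers, 1 of 26 tested was higher and 14 lower than NC with MK1775, and 1 was higher and 16 lower with the siRNA label, so that 53.8% and 61.5% of the list were lower. Its median difference was -0.24 and -0.29, beside -0.04 and -0.01 over all genes tested. Samm50, part of the outer-membrane sorting machinery, averaged 12.2 ± 0.667 FPKM in MK1775 libraries, 12.3 ± 0.332 in siRNA-labelled libraries and 24.7 ± 1.405 in NC libraries (SD, n = 3). The channel Vdac1 averaged 84.7 ± 3.16 FPKM in MK1775 libraries, 78.6 ± 3.75 in siRNA-labelled libraries and 155 ± 9.07 in NC libraries (SD, n = 3). In log2 terms Samm50 differed from NC by -0.96 with MK1775 and -0.95 with the siRNA label, and Vdac1 by -0.87 and -0.97, each with an adjusted p no higher than 1.78e-05.

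Of 47 tested assembly factors of the respiratory complexes, a list that includes the Ndufaf genes above, 3 were higher and 9 lower with MK1775, and 5 were higher and 10 lower with the siRNA label. The shares, 6.38% higher and 19.1% lower with MK1775 and 10.6% and 21.3% with the siRNA label, were all below those of all genes. Timmdc1, which builds the membrane arm of complex I, averaged 14.2 ± 1.33 FPKM in MK1775 libraries, 13.3 ± 0.255 in siRNA-labelled libraries and 8.903 ± 0.374 in NC libraries (SD, n = 3). On the log2(FPKM + 1) scale the difference was 0.62 (SE 0.07, adjusted p = 2.74e-04) with MK1775 and 0.53 (SE 0.07, adjusted p = 5.76e-04) with the siRNA label. Tmem242, an assembly factor of complex V, averaged 25.1 ± 1.78 FPKM in MK1775 libraries, 24.6 ± 2.23 in siRNA-labelled libraries and 35.7 ± 1.94 in NC libraries (SD, n = 3). With MK1775 the log2 difference from NC came to -0.49 (SE 0.081, adjusted p = 0.00174), and with the siRNA label to -0.52 (SE 0.081, adjusted p = 0.00125). Fmc1, also an assembly factor of complex V, differed by -0.46 and -0.58.

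In coenzyme Q synthesis, 1 of 12 was higher and 3 lower with MK1775, and 2 were higher and 4 lower with the siRNA label. The list is small. Its shares higher, 8.33% and 16.7%, were below those of all genes, and its share lower with the siRNA label, 33.3%, was above. Coq10b, which binds coenzyme Q, averaged 26.4 ± 0.958 FPKM in MK1775 libraries, 25.9 ± 2.17 in siRNA-labelled libraries and 10.5 ± 0.8204 in NC libraries (SD, n = 3). Relative to NC, log2 differences of 1.25 (SE 0.076, adjusted p = 1.32e-05) for MK1775 and 1.22 (SE 0.076, adjusted p = 1.46e-05) for the siRNA label were obtained. Coq7, the hydroxylase of the penultimate step, averaged 7.94 ± 0.552 FPKM in MK1775 libraries, 8.29 ± 0.554 in siRNA-labelled libraries and 15.7 ± 0.975 in NC libraries (SD, n = 3). The log2 difference was -0.90 (SE 0.074, adjusted p = 5.92e-05) for MK1775 and -0.85 (SE 0.074, adjusted p = 7.81e-05) for the siRNA label, each against NC. These 2 genes moved in opposite directions and further than any called member of the chain.

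The citric acid cycle list had 4 of 19 higher and 5 lower with MK1775, and 5 higher and 6 lower with the siRNA label. The shares lower, 26.3% with MK1775 and 31.6% with the siRNA label, were somewhat above those of all genes. The shares higher were 21.1% and 26.3%. The 5 called higher with the siRNA label include Pcx, which makes oxaloacetate. Pcx reached the 1 FPKM needed for testing only through its treated libraries, and nothing is read from the shares higher. Fumarase, Fh1, averaged 35.6 ± 1.18 FPKM in MK1775 libraries, 34.5 ± 1.49 in siRNA-labelled libraries and 51.01 ± 2.28 in NC libraries (SD, n = 3). Idh2 and Idh3a, both isocitrate dehydrogenases of mitochondria, differed by -0.40 and -0.29 with MK1775 and by -0.45 and -0.38 with the siRNA label, and Fh1 by -0.50 and -0.55. Of 39 genes for mitochondrial DNA replication and RNA expression, 2 were higher and 7 lower with MK1775, and 2 were higher and 6 lower with the siRNA label. The shares lower, 17.9% and 15.4%, and higher, 5.13% in both, were below those of all genes. Hsd17b10, a subunit of mitochondrial RNase P, averaged 51.1 ± 2.89 FPKM in MK1775 libraries, 53.3 ± 0.71 in siRNA-labelled libraries and 73 ± 2.26 in NC libraries (SD, n = 3). Gfm1, a translation elongation factor, averaged 17.5 ± 0.672 FPKM in MK1775 libraries, 16.7 ± 0.615 in siRNA-labelled libraries and 23.6 ± 0.404 in NC libraries (SD, n = 3). Both fell in both comparisons, by log2 differences of -0.51 and -0.41 with MK1775 and -0.45 and -0.48 with the siRNA label.

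Among regulators of mitochondrial biogenesis, 6 of 14 were higher and 1 lower with MK1775, and 5 were higher and 1 lower with the siRNA label. The shares were 42.9% and 7.14% with MK1775 and 35.7% and 7.14% with the siRNA label, and the list's median difference was 0.26 and 0.33, beside -0.04 and -0.01 over all genes. Myc averaged 74.1 ± 4.52 FPKM in MK1775 libraries, 68.6 ± 4.75 in siRNA-labelled libraries and 52.8 ± 4.27 in NC libraries (SD, n = 3). Sirt1, a deacetylase of the coactivator PGC-1alpha, averaged 8.23 ± 0.192 FPKM in MK1775 libraries, 9.68 ± 1.697 in siRNA-labelled libraries and 4.93 ± 1.06 in NC libraries (SD, n = 3). The gene counted as lower, Ppargc1b, codes for the coactivator PGC-1beta and averaged 0.966 ± 0.0215 FPKM in MK1775 libraries, 0.955 ± 0.0958 in siRNA-labelled libraries and 1.67 ± 0.177 in NC libraries (SD, n = 3). It reached the 1 FPKM needed for testing only through NC, and nothing is read from its call. Nrf1, named here after its values were seen because it codes for the factor whose letters were searched in the promoters, differed by 0.40 with MK1775 (adjusted p = 0.0455) and by 0.28 with the siRNA label (adjusted p = 0.125).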

How the data were processed

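RNA-seq of 9 libraries of mouse 4T1 cells was analysed, with groups taken from the sample labels. Libraries were made from total RNA with an Illumina kit, per the labels' protocols; no source used here states poly(A) selection or strand-aware counting, so reads of overlapping antisense genes cannot be told apart. FastQC, Trim Galore, HISAT2, StringTie and the build GRCm39 are named per the submitters' processing notes, without versions. The authors deposited FPKM values for 158719 transcripts, of which 17991 are assembled transcripts without a gene name. FPKM holds no read counts, so depth is unknown and counting intervals cannot be had.

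Named transcripts were summed per gene name, leaving out 19 names found on more than 1 chromosome. The 10453 genes whose mean reached 1 FPKM were tested on log2(FPKM + 1) with limma 3.58.1 in R 4.3.3 (package data.table, version 1.17.8), with 3 group means and a trended prior, two-sided, and Benjamini-Hochberg adjustment over all genes tested at 0.05. An exact permutation test of 3 against 3 libraries cannot go below p = 0.1 and was not used. The scripts were tested on simulated data. Python 3.11.15, pandas 2.3.3 and matplotlib 3.10.9 made the summaries and plots.

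The members and lists were chosen with earlier results of these data known. Values in every library are given for the mitochondrial genes, the most abundant nuclear gene of each complex, the 3 largest called rises and falls of each comparison, sets of related subunit genes, Cycs and the Sdh genes, and other members where a result turned on them. From each pathway list the 2 called genes with the smallest adjusted p per comparison are named. Alternatives changed the pseudocount, filter, scaling, model and transcript summary, or left out 1 library each.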

Additional observations from a re-analysis of the deposited data

Results flagged for a closer look

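The comparisons by gene name do not use unnamed transcripts. Of 24 nuclear respiratory chain genes with such transcripts at their loci, 17 had a mean of at least 1 FPKM of them over the 9 libraries. These were higher in all MK1775 libraries than in NC at 6 loci (35.3%) and in all siRNA-labelled libraries at 4 (23.5%), beside 23.4% and 23% of the 4522 nuclear genes with unnamed transcripts at that level, and nothing is read from these counts. At the Ndufaf6 locus they averaged 10.7 ± 3.67 FPKM with MK1775 and 14.1 ± 1.78 FPKM with the siRNA label, against 3.59 ± 0.655 FPKM in NC (SD, n = 3), ratios of 2.97 and 3.94. Ndufa7 had 3.26 ± 1.36 FPKM with MK1775 and 4.06 ± 2.43 FPKM with the siRNA label, against 0.690 ± 0.496 FPKM in NC, ratios of 4.72 and 5.89. Those of Uqcrc2 had 2.13 ± 0.957 FPKM with MK1775 and 1.05 ± 0.125 FPKM with the siRNA label, against 0.0305 ± 0.0528 FPKM in NC. The ratios of 69.9 and 34.4 rest on NC values near 0.

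Between MK1775 and NC, unnamed transcripts were higher at Cox7a2l (3.56 ± 0.934 FPKM against 1.56 ± 0.222 FPKM in NC, a ratio of 2.28) and at Atp5h (2.03 ± 0.0598 FPKM against 0.677 ± 0.312 FPKM in NC, a ratio of 3.00). The Ndufaf2 locus had 26.4 ± 1.06 FPKM with MK1775 against 24.1 ± 0.924 FPKM in NC, a ratio of 1.10. The Ndufb11 locus had 24.2 ± 1.24 FPKM with the siRNA label against 18.1 ± 3.64 FPKM in NC, a ratio of 1.34. These differences were not tested on their own. The Ndufa7, Uqcrc2 and Atp5h loci averaged below 1 FPKM in NC and reached the mean of 1 FPKM only through treated libraries.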

How the results depend on the processing

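With MK1775, the 8 genes called higher became 13 with values rescaled to a common total, 17 with median-of-ratios size factors, 20 with quantile normalization, 18 with array weights and 17 with unnamed transcripts added, and the 20 called lower became 12 with no filter on low values and 13 with median-of-ratios factors. Over all genes, the 1871 called higher became 1936, 2118, 1986, 2567 and 2771 under the first 5 of these settings, in the same order. The 2411 called lower, of 10453 tested, became 2168 of 28692 with no filter and 2014 of 10439 with median-of-ratios factors. Requiring a log2 difference of 1 left 0 members in each direction in both comparisons with NC. Of all 10453 genes tested it left 436 with MK1775 and 490 with the siRNA label, both directions together. Leaving out 1 library gave 6 to 12 higher and 13 to 21 lower with MK1775 (13 without NC replicate 3 or MK1775 replicate 1 or 2), and 9 to 14 higher and 14 to 25 lower with the siRNA label (9 without its replicate 2, 14 without its replicate 1, 15 without NC replicate 2). Over all genes these fits gave 1559 to 1886 higher and 1966 to 2449 lower with MK1775. With the siRNA label they gave 1740 to 2036 higher and 1998 to 2337 lower. Over the 22 alternatives without such a fold threshold, 5 of 8 higher and 9 of 20 lower calls with MK1775, and 8 of 14 and 11 of 24 with the siRNA label, held every time. The share of all called genes that held every time was not counted, so nothing is read from these counts.

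Correlations of same-numbered deviations were -0.120 to 0.0435, and those of different-numbered ones -0.155 to 0.182. With 3 libraries a group, this cannot decide whether libraries were paired. With a replicate block, 7 genes were higher and 18 lower with MK1775, and 12 and 21 with the siRNA label. Over all genes this gave 1697 higher and 2184 lower with MK1775, and 1874 and 2205 with the siRNA label.

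The log2 ratio of nuclear sums, -0.02 with MK1775, was 0.029 with median-of-ratios factors and 0.030 with quantile normalization, and that for the siRNA label, -0.01, was 0.056 with quantile normalization. MK1775 over the siRNA label was 0.0071 with median-of-ratios factors. Without 1 library these ratios ran from -0.057 to 0.0014 with MK1775, from -0.042 to 0.016 with the siRNA label and from -0.024 to -0.0061 between treated groups.

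Signs turned for Atp5g2 with its most abundant transcript (1.89 with MK1775, 1.84 with the siRNA label), and for uncalled genes. Without 1 library, Ndufb8 ran from -1.41 to 0.79 with MK1775 (0.15 and 0.17 without NC replicates 1 and 3) and from -0.34 to 1.24 with the siRNA label, where it was also -0.19 with array weights and -0.35 with its unnamed transcript. Ndufs1 ran from -0.39 to 0.032 with MK1775 and from -0.28 to 0.20 with the siRNA label (0.13 without NC replicate 1), where it was 0.0019 with quantile normalization and 0.015 with array weights. Sdhb ran from -0.0057 to 0.12 with MK1775. With the siRNA label, Ndufaf6 was -0.15 with its most abundant transcript, and Cox5a 0.080 with unnamed transcripts and 0.11 without its replicate 1. The causes were not tested. Over all genes, dropping the filter moved the share of called genes that were higher to 57.3%, against 43.7%, with MK1775 and to 61.3%, against 45.8%, with the siRNA label. Of 157 tested genes of the pathway lists, 17 were higher with MK1775 and 20 with the siRNA label. These became 11 and 10 with the most abundant transcript. Over all genes, the 1871 and 2048 higher, of 10453 tested, became 1340 and 1445 of 9884 with that setting. Depth is unknown, so what it limits cannot be given.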
